A study of Homo sapiens with 6 samples.

Results

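The genes described here encode 41 enzymes and carriers of phosphoinositide metabolism other than the PI5P4K family: 16 kinases and kinase subunits, 9 myotubularins, 3 phosphatases of the 4-position, 8 of the 5-position, 3 phospholipases C and 2 phosphatidylinositol transfer proteins. They were taken by name from a list drawn up with earlier results of these data known. The rule itself uses no measured value, and all 41 were found among the 27914 genes of the deposited table. Expression was measured by RNA sequencing of MCF10A, an immortalised, non-tumorigenic human breast epithelial cell line. All 6 libraries came from cells treated with doxycycline for 3 days. The control group, SCRin, has a wild-type genotype and 3 libraries, and the compared group, α-/-;βin, has 3 libraries. The abbreviations SCR and in are used as the labels give them. The series title names PI5P4K, so α and β were read as PIP4K2A and PIP4K2B. The sources used here do not say whether α-/-;βin is 1 clone or whether the 3 libraries of a group were grown as separate cultures. The p-values therefore describe the spread between these libraries, which may be technical.

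Phosphoinositides are phosphorylated forms of the membrane lipid phosphatidylinositol. Kinases and phosphatases add and remove phosphates at the 3, 4 and 5 positions of its inositol ring, and each form marks particular membranes: the 4-phosphate the Golgi and plasma membrane, the 4,5-bisphosphate the plasma membrane, and the 3-phosphate endosomes. Phospholipase C cleaves the 4,5-bisphosphate into diacylglycerol and a soluble inositol phosphate that releases calcium. PI5P4K enzymes convert the 5-phosphate into the 4,5-bisphosphate, and myotubularins can form the 5-phosphate by removing a phosphate from the 3,5-bisphosphate. The comparison asks whether transcripts of the other enzymes that make or consume these lipids differ in α-/-;βin cells.

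Both targeted genes were lower in the libraries labelled α-/-;βin, which checks the labels. PIP4K2A measured 19.8, 20.2 and 21.7 TPM in control replicates 1 to 3 and 4.09, 4.16 and 4.35 TPM in the α-/-;βin replicates (log2 change -2.05, SE 0.10, limma adjusted p = 0.000847). PIP4K2B measured 20.8, 23.1 and 21.4 TPM against 8.20, 8.69 and 11.6 TPM (log2 change -1.13, SE 0.14, limma adjusted p = 0.00985), and PIP4K2B missed the threshold once control replicate 3 was left out (adjusted p = 0.0602, range 0.00595 to 0.0602 over the alternatives). TPM is scaled for gene length and to the same total in each library, so the read depth is unknown. Libraries listed 14738 to 15058 genes above 0. All 6 breast epithelial markers checked reached a mean of 1 TPM, and KRT5, EPCAM and TP63 were higher in every α-/-;βin library than in any control. The list's sums overlapped, at 779 to 1654 TPM in controls and 1380 to 1789 TPM in α-/-;βin libraries. Among leukocyte markers, PTPRC was listed at 0 in all 6 libraries, CD3E was listed above 0 in 1 control only, and CD14 measured 2.64 to 5.998 TPM in controls and 7.05 to 9.48 TPM in α-/-;βin libraries. None of 3 endothelial markers and 2 of 5 fibroblast markers reached a mean of 1 TPM, and the fibroblast sums overlapped (1.96 to 6.32 and 2.73 to 6.08 TPM). In bulk RNA, fewer cells of a type and less RNA per cell cannot be told apart.

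None of the 40 tested members was called at the threshold used, an adjusted p under 0.05 in limma over all tested genes. With the replicate number as a block, 2 of the 40 did pass, PLCD3 and MTMR1 (limma adjusted p = 0.0163 and 0.0364). In that fit 881 of all 12096 tested genes passed. Of the 41, 40 reached the mean of 1 TPM needed for testing. Without the block, 0 of the 40 were called, beside 2.19% of all 12096 tested genes (0.364% higher and 1.83% lower). At an unadjusted p under 0.05 there were 3 members (7.5%, beside 11.9% of all tested genes): PLCD3, MTMR1 and PIK3R2. The 6 libraries separated completely by group for 7 members (17.5%, beside 17.1% of all tested genes). Of these, PLCD3, PIK3R2 and INPP5B were higher in every α-/-;βin library (5.64% of all tested genes) and MTMR1, PI4KB, PIP5K1A and OCRL were lower (11.4%). These shares are near or below those of the whole table. A log2 change of 0.5 or more in size occurred in 2 members, PLCD3 and PIK3CD, beside 10.3% of all tested genes.

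The members as a whole stayed close to the control level, and the intervals show how much change the data leave room for. The median log2 change, computed on TPM + 1, was -0.03 (quartiles -0.08 and 0.04), beside -0.01 (quartiles -0.16 and 0.11) over all tested genes, and with TPM rescaled by median ratios it was 0.00. The median size of change was 0.07 in the members and 0.13 in all tested genes. The median width of the 95% interval was also smaller in the members, 0.56 beside 0.70 log2 units. These sizes of change are therefore not matched for spread. There were 17 members above 0 and 23 below. The 95% interval lay within 1 log2 unit of no change on both sides for 39 of 40 members and within 0.5 for 33, while 2 members, PITPNB and MTMR6, had an interval within 0.25. PIK3CD had the widest interval, -1.16 to 0.14. The summed level of all 41 genes was 972, 1017 and 1004 TPM in controls and 985, 993 and 971 TPM in α-/-;βin libraries, and the groups overlapped.

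**Figure D1:**
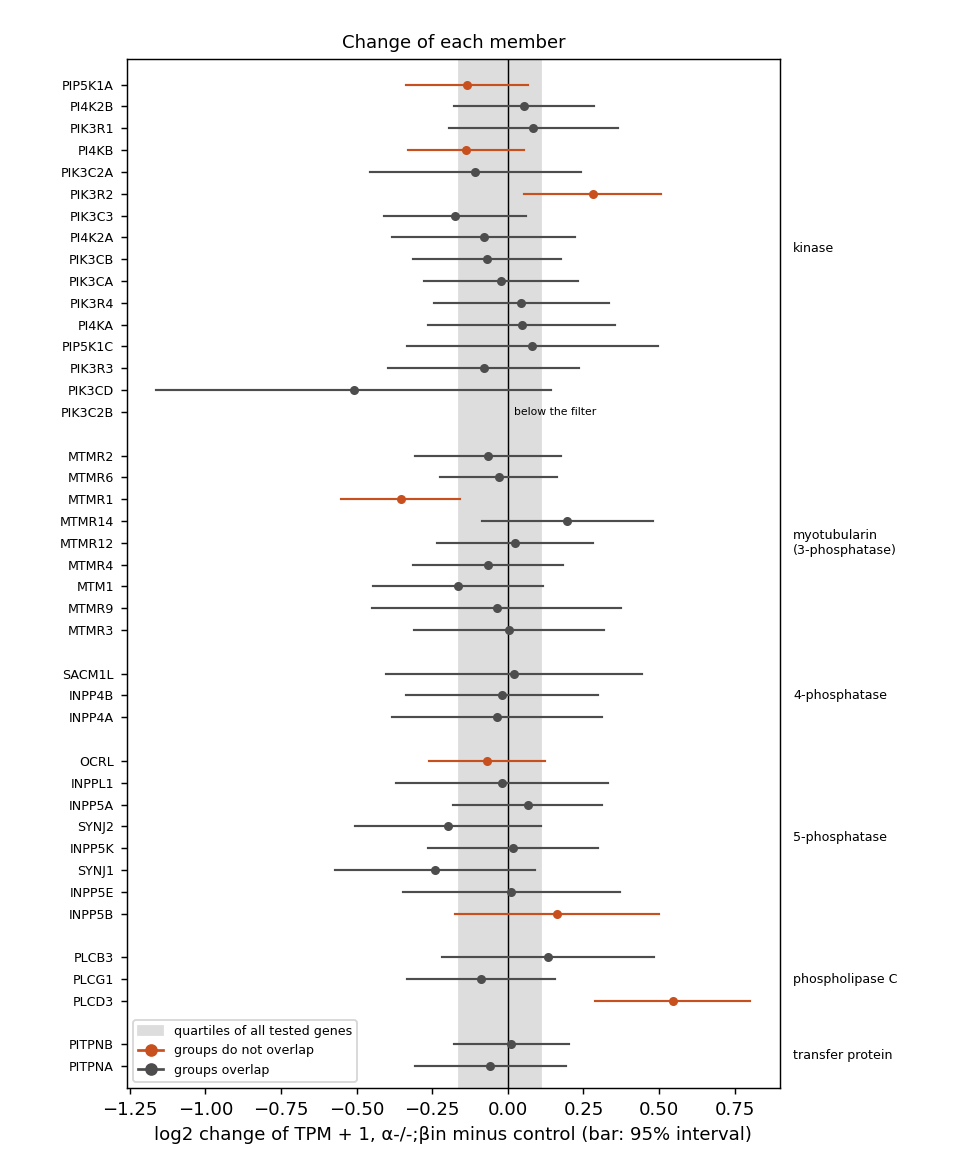
Log2 change of TPM + 1 in α-/-;βin cells minus SCRin control for each member, by enzyme class and ordered by mean TPM, with 95% intervals from limma (n = 3 per group). Orange marks the 7 members whose libraries did not overlap between groups, and the grey band spans the quartiles of all tested genes, -0.16 to 0.11; the intervals of PLCD3, MTMR1 and PIK3R2 do not include 0.

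Transcript levels per length spanned a wide range. PITPNB was the most abundant member, with a mean of 121 TPM over the 6 libraries, ahead of PIP5K1A at 72.4, PI4K2B at 58.8 and MTMR2 at 55.6 TPM. PI4K2B and MTMR2 do not differ beyond their spread between libraries (55.0 to 65.7 and 51.0 to 61.1 TPM). A further 13 members averaged 20 to 50 TPM, 13 averaged 10 to 20 TPM and 11 less than 10 TPM. At the bottom were INPP5B at 3.71, PIK3CD at 3.12 and PIK3C2B at 0.832 TPM. The median member, at 17.1 TPM, lay near the median tested gene at 19.0 TPM. No member was listed at 0 in any library. In RefSeq, 20 of the 41 members overlap another gene, and, with strandedness not given, reads in the shared part cannot be told apart. Replicates of a group differed by a median coefficient of variation of 7.86% in controls and 8.10% in α-/-;βin cells, with PIK3CD the most variable in both (28.8% and 37.9%).

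**Figure D2:**
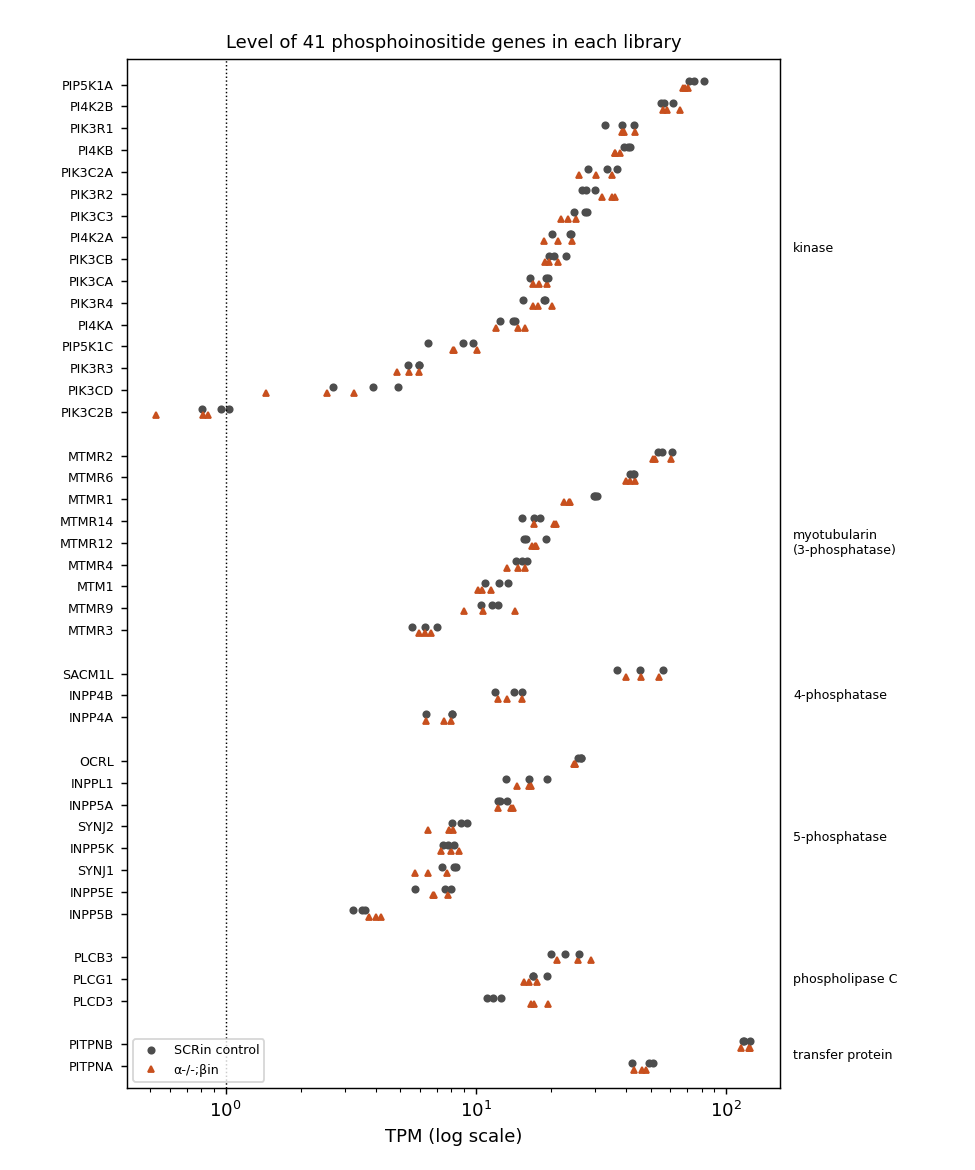
TPM of the 41 members in each library on a log axis, by enzyme class, with circles for the 3 SCRin control libraries and triangles for the 3 α-/-;βin libraries; the dotted line marks 1 TPM. Levels run from PIK3C2B, below the filter at a mean of 0.832 TPM, to PITPNB at 121 TPM, and the symbols of the groups lie apart for 7 members only.

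PI 4-kinases, which make the 4-phosphate, were led by PI4K2B, a type II kinase of endosomal and Golgi membranes. It measured 61.5, 56.4 and 55.0 TPM in controls and 65.7, 57.9 and 56.1 TPM in α-/-;βin libraries. PI4K2B made up 42.9% ± 1.26 of the summed PI 4-kinase TPM in controls and 45.3% ± 2.12 in α-/-;βin cells (SD, n = 3). PI4KB, the Golgi kinase, measured 41.5, 40.6 and 39.2 TPM against 35.9, 37.8 and 36.2 TPM. All 3 control libraries lay above all 3 α-/-;βin libraries, but the difference did not pass the test (log2 change -0.14, SE 0.08, 95% interval -0.33 to 0.05, limma adjusted p = 0.597). An exact two-sided permutation test gave p = 0.1, the smallest that 3 libraries against 3 allow. Its RefSeq gene overlaps ZNF687, which measured 10.6 and 9.83 TPM and did not pass (limma adjusted p = 0.907). PI4KA, the plasma membrane kinase, averaged 13.6 and 14.2 TPM, and PI4K2A, the other type II kinase, 22.7 and 21.5 TPM, with overlapping groups. Reads of PI4KA could be shared with its near-identical pseudogene copies PI4KAP1 and PI4KAP2, so its value is uncertain. PI4KAP1 averaged 1.27 TPM in controls and 2.37 TPM in α-/-;βin libraries, and PI4KAP2 3.77 and 2.76 TPM.

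PIP5K1A and PIP5K1C, the type I kinases that turn the 4-phosphate into the 4,5-bisphosphate, form the same lipid as the PI5P4K enzymes by the main route. PIP5K1A measured 71.4, 74.6 and 81.5 TPM in controls and 67.7, 70.3 and 68.7 TPM in α-/-;βin libraries. The ranges did not overlap, with 1.06 TPM between the lowest control and the highest α-/-;βin library. The difference did not pass the test (log2 change -0.14, SE 0.08, 95% interval -0.34 to 0.07, limma adjusted p = 0.628). A retrotransposed copy, PIPSL, was listed at a mean of 2.00 TPM and could take reads from it. PIP5K1C, which supplies the lipid at focal adhesions, measured 6.42, 8.92 and 9.75 TPM in controls and 8.11, 8.22 and 10.2 TPM in α-/-;βin libraries. PIP5K1A made up 90.1% ± 1.40 of the PIP5K sum in controls and 88.6% ± 1.34 in α-/-;βin cells, and that sum was 84.2 ± 6.76 and 77.7 ± 1.69 TPM (SD, n = 3).

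Class I PI 3-kinases, which make the signalling lipid PI-3,4,5-trisphosphate, consist of a catalytic and a regulatory subunit. PIK3R2, encoding the regulatory subunit p85β, measured 26.7, 27.5 and 30.1 TPM in controls and 31.9, 34.9 and 36.2 TPM in α-/-;βin libraries. Every α-/-;βin library was above every control. The log2 change was 0.28 (SE 0.10, 95% interval 0.05 to 0.51), with an unadjusted p of 0.0219 and a limma adjusted p = 0.297, so it was not called. PIK3R1, encoding p85α, was the most abundant regulatory subunit and its groups overlapped, at 42.8, 38.5 and 32.9 TPM against 43.2, 39.2 and 38.3 TPM. PIK3R3, encoding p55γ, averaged 5.75 and 5.39 TPM.

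Among the catalytic subunits, PIK3CB (p110β) and PIK3CA (p110α) were near equal. PIK3CB measured 19.5, 22.9 and 20.6 TPM in controls and 18.9, 19.7 and 21.3 TPM in α-/-;βin libraries. PIK3CA measured 19.4, 19.1 and 16.4 TPM against 19.2, 17.8 and 16.9 TPM. PIK3CD (p110δ), best known from leukocytes, measured 3.89, 2.70 and 4.90 TPM against 3.26, 1.45 and 2.55 TPM. Its lower mean of 63.2% of control came with overlapping groups and missed the threshold (log2 change -0.51, SE 0.28, limma adjusted p = 0.559). The log2 change was -0.29 without α-/-;βin replicate 2 and -0.35 without control replicate 3, both under 0.5 in size. In RefSeq PIK3CD overlaps 5 other genes, among them the antisense genes PIK3CD-AS1 and PIK3CD-AS2 and the gene CLSTN1. Their levels are not given here and strandedness is unknown, so the low value of PIK3CD is uncertain. The regulatory sum was 71.9 ± 3.58 TPM in controls and 80.0 ± 0.408 TPM in α-/-;βin cells and the catalytic sum was 43.2 ± 1.41 and 40.4 ± 1.26 TPM (SD, n = 3). Neither sum overlapped between groups as deposited, and both overlapped after rescaling by median ratios. Regulatory transcripts per catalytic transcript came to 1.76, 1.61 and 1.63 in controls and 1.93, 2.04 and 1.97 in α-/-;βin libraries. This ratio does not depend on how libraries are scaled, and the ranges do not overlap. It was computed after the values were seen and was not tested.

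The class II and class III PI 3-kinases make 3-phosphorylated lipids on endocytic membranes. PIK3C2A, which acts in clathrin-mediated endocytosis, measured 28.1, 36.7 and 33.6 TPM in controls and 25.9, 35.0 and 30.3 TPM in α-/-;βin libraries. Replicate 1 was the lowest and replicate 2 the highest of both groups. PIK3C2B, its relative, had 0.803, 1.03 and 0.958 TPM against 0.529, 0.816 and 0.853 TPM and lay below the filter. PIK3C3 (VPS34), which makes the endosomal 3-phosphate needed for autophagy, measured 27.9, 24.7 and 27.4 TPM against 25.2, 23.4 and 21.9 TPM. The groups overlapped and PIK3C3 did not pass (log2 change -0.17, SE 0.10, limma adjusted p = 0.588). PIK3R4 (VPS15), the regulatory partner of PIK3C3, averaged 17.7 ± 2.00 and 18.3 ± 1.64 TPM (SD, n = 3).

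**Figure D3:**
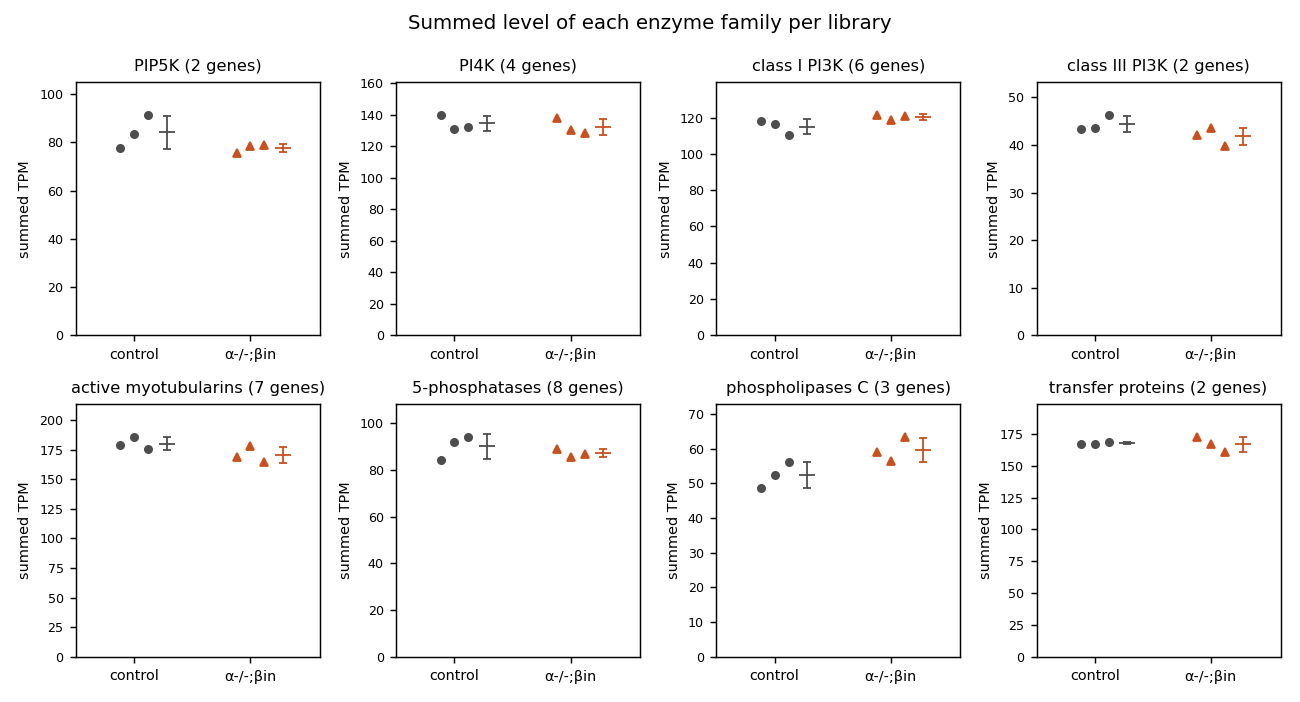
Summed TPM of 8 enzyme families in each library, with circles for SCRin control, triangles for α-/-;βin, and bars for the mean ± SD of 3 libraries; axes start at 0. The sum of the 3 member phospholipases C was 114% of control and the PIP5K sum 92.3%. PLCB4, which is not a member and was called lower, is not in the phospholipase C sum. The class I PI3K and phospholipase C sums did not overlap as deposited. The class I sum overlapped under both rescalings, and the phospholipase C sum when short RNA genes were left out of the scaling. The PIP5K sum overlapped as deposited but not after rescaling by median ratios. The class III PI3K sum overlapped as deposited but not with short RNA genes left out.

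Myotubularins remove the 3-phosphate from the 3-phosphate and 3,5-bisphosphate lipids. MTMR1, the closest relative of MTM1, was the steadiest member within controls, at 30.5, 29.7 and 29.9 TPM, and measured 22.5, 23.6 and 23.8 TPM in α-/-;βin libraries. The groups lay 5.94 TPM apart, and the α-/-;βin mean was 77.5% of control. The log2 change was -0.35 (SE 0.08, 95% interval -0.55 to -0.16), with an unadjusted p of 0.00367, a limma adjusted p = 0.105 and an exact permutation p = 0.1. MTM1, which is mutated in X-linked myotubular myopathy, measured 13.5, 12.4 and 10.8 TPM against 10.2, 10.6 and 11.5 TPM. Its groups overlapped and it did not pass (log2 change -0.17, SE 0.12, limma adjusted p = 0.684). MTMR1 made up 16.7% ± 0.595 of the summed TPM of the 7 active myotubularins in controls and 13.7% ± 0.694 in α-/-;βin cells.

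The other active myotubularins overlapped between the groups. MTMR2, which is mutated in a demyelinating neuropathy, led the family with 53.6, 61.1 and 55.8 TPM in controls and 51.9, 60.1 and 51.0 TPM in α-/-;βin libraries. MTMR6 followed at 42.3 ± 0.876 and 41.5 ± 1.85 TPM (SD, n = 3). MTMR14, which acts on autophagic membranes, measured 15.4, 18.1 and 17.2 TPM in controls and 21.0, 20.6 and 17.1 TPM in α-/-;βin libraries. Its log2 change of 0.20 (SE 0.12) did not pass (limma adjusted p = 0.617). MTMR3 and MTMR4, which carry a lipid-binding FYVE domain, averaged 6.29 and 15.3 TPM in controls and 6.29 and 14.6 TPM in α-/-;βin cells. The catalytically inactive members, which bind and support active ones, also overlapped. MTMR12, a partner of MTM1, averaged 16.9 and 17.1 TPM, and MTMR9, a partner of MTMR6, 11.5 and 11.3 TPM, with a single α-/-;βin library (replicate 1, 14.4 TPM) above all others.

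The phosphatases of the 4-position did not separate the groups. SACM1L (SAC1), which removes the 4-phosphate at the endoplasmic reticulum and Golgi, measured 36.6, 56.3 and 45.4 TPM in controls and 39.8, 53.8 and 45.6 TPM in α-/-;βin libraries. Replicate 1 was the lowest and replicate 2 the highest library of both groups, so the spread within a group was wide and the groups overlapped. INPP4B, which turns the 3,4-bisphosphate into the 3-phosphate and is known as a tumour suppressor in breast, measured 14.3, 11.98 and 15.3 TPM against 13.3, 12.3 and 15.4 TPM. INPP4A, its relative, averaged 7.47 and 7.26 TPM. INPP4B made up 64.9% ± 4.72 of their sum in controls and 65.3% ± 2.83 in α-/-;βin cells.

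Of the 8 phosphatases of the 5-position, OCRL and INPP5B separated the groups in opposite directions. OCRL, the enzyme of Lowe syndrome, was the most abundant at 26.3, 26.4 and 25.7 TPM in controls and 25.02, 24.7 and 24.95 TPM in α-/-;βin libraries. Its complete separation is a difference of 4.82% of the control mean (log2 change -0.07, SE 0.08, limma adjusted p = 0.833). With TPM rescaled by median ratios its groups overlapped. INPP5B, the close relative of OCRL, measured 3.52, 3.60 and 3.22 TPM against 3.75, 4.18 and 4.01 TPM (log2 change 0.16, SE 0.14, limma adjusted p = 0.745). OCRL exceeded INPP5B at least 5.90-fold in every library. INPPL1 (SHIP2), which acts on PI-3,4,5-trisphosphate, measured 13.3, 16.3 and 19.3 TPM against 16.4, 14.6 and 16.7 TPM.

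The synaptojanins, which act in endocytic vesicle uncoating, both had lower means with overlapping groups. SYNJ1 measured 7.35, 8.31 and 8.21 TPM in controls and 7.68, 6.46 and 5.71 TPM in α-/-;βin libraries (log2 change -0.24, SE 0.14, limma adjusted p = 0.598). SYNJ2 measured 8.03, 8.76 and 9.23 TPM against 7.80, 6.45 and 8.10 TPM (log2 change -0.20, SE 0.13, limma adjusted p = 0.655) and did separate the groups after rescaling by median ratios, and also without control replicate 1 or without α-/-;βin replicate 3. INPP5A, which acts on the soluble inositol phosphate, averaged 12.7 and 13.4 TPM. INPP5K, an enzyme of the endoplasmic reticulum, averaged 7.80 and 7.92 TPM, and INPP5E, an enzyme of the primary cilium, 7.08 and 7.10 TPM.

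Phospholipases C held the member with the smallest p. PLCD3, a calcium-dependent isoform, measured 11.7, 12.6 and 11.1 TPM in controls and 17.0, 19.5 and 16.6 TPM in α-/-;βin libraries. All α-/-;βin libraries were at least 4.05 TPM above the highest control. The mean was 150% of control, with a log2 change of 0.54 (SE 0.11, 95% interval 0.29 to 0.80), an unadjusted p of 0.00154 and a limma adjusted p = 0.0622, just outside the threshold. It passed under 2 of 15 alternatives, one of them rescaling by median ratios (adjusted p = 0.0395, range 0.0163 to 0.244 over the alternatives). In RefSeq PLCD3 overlaps NMT1 and ACBD4. NMT1 averaged 39.5 and 38.3 TPM and ACBD4 1.14 and 1.01 TPM, with overlapping groups.

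PLCB3, the isoform activated by G protein-coupled receptors, measured 19.9, 22.9 and 25.9 TPM in controls and 25.6, 21.2 and 29.0 TPM in α-/-;βin libraries (log2 change 0.13, SE 0.15, limma adjusted p = 0.817). PLCG1, the isoform activated by receptor tyrosine kinases, averaged 17.7 ± 1.34 and 16.5 ± 0.993 TPM (SD, n = 3). PLCD3 made up 24.2%, 24.1% and 19.8% of the summed TPM of the 3 phospholipases C in controls and 28.9%, 34.6% and 26.3% in α-/-;βin libraries, with no overlap. The share of PLCG1 was 33.8% ± 1.33 and 27.8% ± 0.0286 (SD, n = 3). Shares of the same sum depend on each other. The TPM of PLCG1 itself overlapped between the groups, with a mean at 93.6% of control. The sum was 48.6, 52.3 and 56.2 TPM against 59.0, 56.3 and 63.3 TPM. Those ranges were 0.08 TPM apart, and they overlapped once the short RNA genes were left out of the scaling. The sum leaves out the other phospholipases C, of which 4 were tested and 1, PLCB4, was called lower. PLCB4 averaged 7.46 TPM in controls and 1.84 TPM in α-/-;βin libraries, so the sum of the members does not describe all phospholipases C.

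PITPNA and PITPNB carry phosphatidylinositol between membranes and supply the kinases. PITPNB measured 118, 125 and 117 TPM in controls and 125, 124 and 115 TPM in α-/-;βin libraries. Its 95% interval for the log2 change, -0.18 to 0.20, was the narrowest of the members. PITPNA measured 49.4, 42.1 and 51.4 TPM against 47.9, 42.8 and 46.2 TPM. Replicate 2 was the lowest for PITPNA in both groups.

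**Figure D4:**
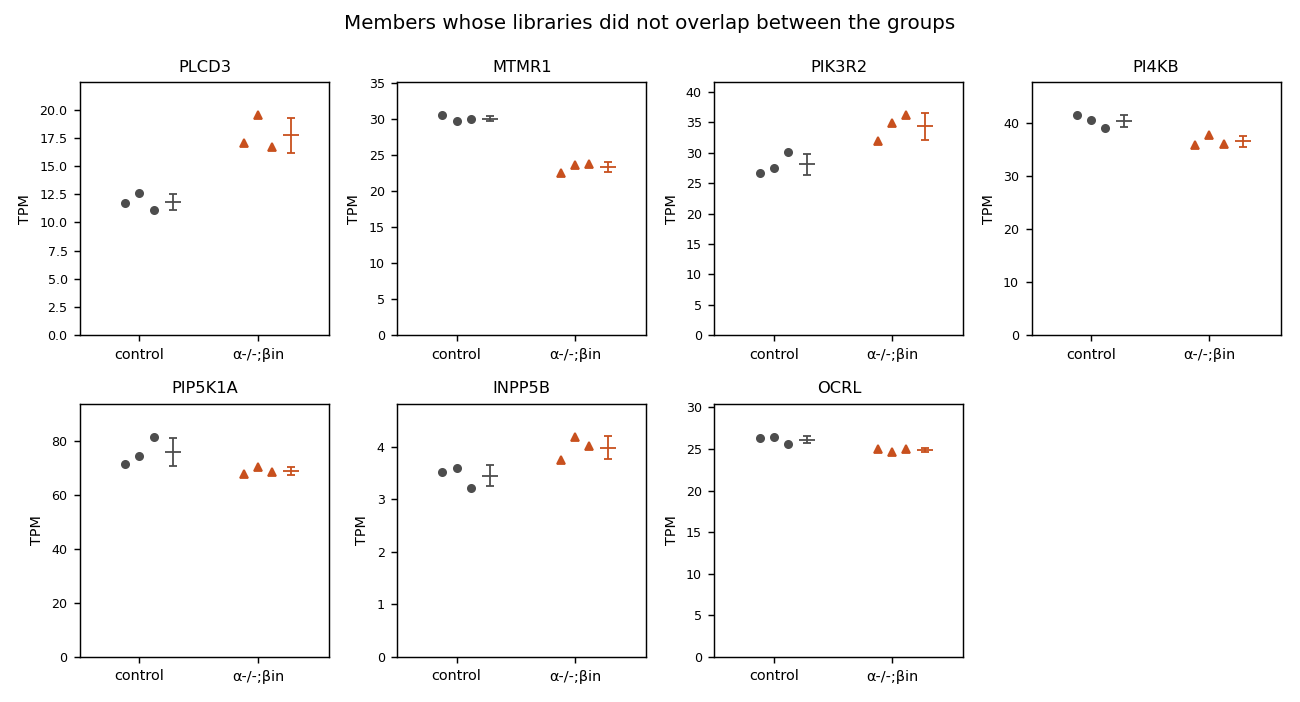
TPM of the 7 members whose libraries did not overlap, with circles for the SCRin control libraries, triangles for the α-/-;βin libraries (left to right replicates 1 to 3), and bars for the mean ± SD; axes start at 0. The groups lie 5.94 TPM apart for MTMR1 and 4.05 TPM for PLCD3, and from 0.155 TPM (INPP5B) to 1.88 TPM (PIK3R2) for the other 5.

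The members were spread over 18 chromosomes by RefSeq names, and none lay in the stretches of chromosomes 7 and 3 where neighbouring genes are lower in these α-/-;βin libraries (264 tested genes). MTM1 and MTMR1 are next to each other on the X chromosome, with 0 tested genes between them. Of the 10 tested genes nearest to MTMR1, 5 were above 0 and 5 below, with a median log2 change of 0.00 and 0 called. Around PLCD3 on chromosome 17 the median of the 10 nearest tested genes was -0.07, and around PIK3R2 on chromosome 19 it was -0.01, with 0 called in both. Single neighbours ran from -0.59 to 0.31 around PLCD3 and from -0.40 to 1.67 around PIK3R2. PIP5K1A and PI4KB, both lower in every α-/-;βin library, lie on chromosome 1 with 2 tested genes between them. Of the 10 tested genes nearest to PI4KB, which include PIP5K1A, 3 were above 0 and 7 below. Their median log2 change was -0.10, with 0 called. INPP5K and PITPNA on chromosome 17 have 1 tested gene between them.

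The 250 bases before the RefSeq start of the 3 members with an unadjusted p under 0.05, and of MTM1 as the neighbouring relative of MTMR1, are printed 5′ to 3′, the first 3 because they had the smallest p-values of the members and MTM1 for comparison. They are PLCD3 (chr17:45132516-45132765, minus strand), PIK3R2 (chr19:18152913-18153162, plus strand), MTMR1 (chrX:150693146-150693395, plus strand, the first of 3 starts listed) and MTM1 (chrX:150568371-150568620, plus strand), all from RefSeq on GRCh38.p14, which is not the build of the deposited table. Capitals mark GC boxes, the motif GGGCGG on either strand (CCGCCC), with overlapping matches joined.
PLCD3: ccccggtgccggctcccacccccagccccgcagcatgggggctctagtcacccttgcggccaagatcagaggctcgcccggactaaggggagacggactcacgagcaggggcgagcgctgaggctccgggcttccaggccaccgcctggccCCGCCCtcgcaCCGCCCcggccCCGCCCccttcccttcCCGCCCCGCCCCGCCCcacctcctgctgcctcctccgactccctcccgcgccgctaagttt
PIK3R2: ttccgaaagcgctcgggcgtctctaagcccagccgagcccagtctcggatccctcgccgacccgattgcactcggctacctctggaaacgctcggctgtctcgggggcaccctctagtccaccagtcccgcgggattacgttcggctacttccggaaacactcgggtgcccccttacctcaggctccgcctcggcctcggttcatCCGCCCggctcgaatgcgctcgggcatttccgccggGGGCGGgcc
MTMR1: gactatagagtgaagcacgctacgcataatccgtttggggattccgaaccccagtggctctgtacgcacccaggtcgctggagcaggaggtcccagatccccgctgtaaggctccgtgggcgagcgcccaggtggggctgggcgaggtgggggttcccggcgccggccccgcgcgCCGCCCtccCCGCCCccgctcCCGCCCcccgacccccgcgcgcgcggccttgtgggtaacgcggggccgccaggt
MTM1: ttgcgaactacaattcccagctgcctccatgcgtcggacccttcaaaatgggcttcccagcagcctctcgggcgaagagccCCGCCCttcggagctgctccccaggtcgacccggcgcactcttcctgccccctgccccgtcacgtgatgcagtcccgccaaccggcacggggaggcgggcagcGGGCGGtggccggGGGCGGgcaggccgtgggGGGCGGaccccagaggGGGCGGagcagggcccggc
GC boxes numbered 6 in PLCD3, 2 in PIK3R2, 3 in MTMR1 and 5 in MTM1. The TEAD motif GGAATG (or CATTCC), the sequence bound by the partners of YAP and TAZ, was in none of these 4 windows. Of the 38 members with a listed promoter, 28 (73.7%) held a GC box in this window, beside 42.3% of 27305 RefSeq promoters, and 7 (18.4%) held the TEAD motif, beside 11.9%. The members' promoters had a median of 24 CpG pairs and 68.0% G + C, beside 11 and 58.0% over all promoters. The promoters of all genes were not filtered by expression, while 40 of the 41 members were tested. The 2 sets are therefore not matched, and these differences cannot be read as particular to the members. A match describes letters in the window and is not a binding site.

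Further genes of phosphoinositide metabolism, listed by role, were examined in the same fit. Of 92 such genes, all had a row and 70 were tested. Of the 70, 0 were called higher and 5 lower, beside 0.364% and 1.83% of all tested genes. The 5 were the targeted PIP4K2A and PIP4K2B with FAM126A, OSBPL3 and PLCB4. FAM126A, a subunit of the complex that holds PI4KA at the plasma membrane, measured 45.2, 50.9 and 42.8 TPM in controls and 26.1, 28.5 and 25.8 TPM in α-/-;βin libraries (log2 change -0.76, SE 0.10, limma adjusted p = 0.0113). OSBPL3, an oxysterol-binding protein relative, measured 42.7, 40.9 and 45.3 TPM against 23.9, 20.6 and 24.7 TPM (log2 change -0.87, SE 0.10, limma adjusted p = 0.00802). Both lie in the lowered stretch of chromosome 7. The FAM126A call was lost without α-/-;βin replicate 1 (adjusted p = 0.0541) and without α-/-;βin replicate 3 (adjusted p = 0.0702, range 0.00279 to 0.0702 over the alternatives). OSBPL3 missed it once control replicate 3 was left out (adjusted p = 0.0548, range 0.00255 to 0.0548).

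PLCB4, a phospholipase C of the same family as PLCB3, measured 4.95, 7.03 and 10.4 TPM in controls and 1.23, 1.73 and 2.58 TPM in α-/-;βin libraries (log2 change -1.55, SE 0.29, limma adjusted p = 0.0487). It passed in 6 of 14 alternatives and was lost with each of control replicates 2 and 3 and each α-/-;βin replicate left out (adjusted p 0.00419 to 0.155 over the alternatives). INPP5D (SHIP1), an enzyme best known from leukocytes that is named because of its values, measured 2.52, 5.18 and 3.87 TPM against 8.02, 17.4 and 11.1 TPM and was not called (log2 change 1.42, SE 0.31, limma adjusted p = 0.0822). The leukocyte marker PTPRC was listed at 0 in every library, and CD14 was higher in each α-/-;βin library than in any control. Their part in the INPP5D difference was not tested. The remaining PI5P4K gene, PIP4K2C, measured 45.9, 37.4 and 45.9 TPM against 39.9, 28.6 and 33.4 TPM and was not called (limma adjusted p = 0.438). By role, 1 of 12 tested kinase partners, 1 of 4 phospholipases C and 1 of 16 transfer proteins and exchangers were called lower. The share called lower over all tested genes was 1.83%. No gene was called among 3 other kinases, 11 other phosphatases, 12 genes of phosphatidylinositol synthesis and 9 of the inositol phosphate arm. In all, 7 of the 92 genes were listed at 0 in every library, among them PIK3CG, PIK3R5 and PIK3R6, the parts of the leukocyte class I PI 3-kinase γ.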

How the data were processed

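The authors deposited 1 table of TPM for 27914 genes by symbol, 1 column per library. The build hg19 and the program DESeq2 are named in the submitters' processing notes. The aligner, quantification program, annotation and strandedness were not given in the sources used here. Control columns matched samples by name and replicate number. Columns headed as the experiment were assigned to α-/-;βin as the remaining group, by number. TPM was transformed to log2(TPM + 1), which understates changes of low genes. The 12096 genes (43.3%) averaging 1 TPM or more were fitted with limma 3.58.1 in R 4.3.3 (empirical Bayes, variance trend, two-sided, Benjamini-Hochberg over all tested genes, threshold 0.05), and the procedure was tested on simulated data. Members and gene lists were chosen with earlier results of these data known. Named genes are the 41 members, PIP4K2A, PIP4K2B and called genes of the pathway list. Cell type markers came from fixed lists. Apart from these, any other gene was chosen after its values were seen. RefSeq (GRCh38.p14) matched 27010 symbols and was used for names, neighbours and promoters. All 41 members had a position and 38 a listed promoter. TMEM55A and TMEM55B were found as PIP4P2 and PIP4P1. Alternatives changed the pseudocount, filter, scaling, variance trend, replicate block, gene set and libraries. Those for the family sums were chosen after seeing the data. One marker gene is not reported here.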

Additional observations from a re-analysis of the deposited data

How the results depend on the processing

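Read depth is unknown from TPM, and 3 libraries a group leave intervals of 0.56 log2 units in width at the median member. The exact permutation test cannot go below 0.1. Among the members, 0 were called under 13 of 15 alternatives. With TPM rescaled by median ratios, 1 of 40 members (PLCD3) was called higher (adjusted p = 0.0395) and the members' median log2 change became 0.00. Of the 12088 genes tested there, 48 were called higher and 233 lower. The 14 members named with a log2 change and a test kept their direction under every alternative that tested them (14 for PIK3CD and INPP5B, 15 for the others), while 18 members with a main change of at most 0.085 in size changed sign under at least 1. The sums of all members and of kinases moved to 100.4% and 99.8% of control under rescaling by median ratios. The kinase sum did not overlap between the groups as deposited and overlapped after that rescaling. Leaving out the lowered stretches of chromosomes 7 and 3 reduced the calls to 14 higher and 31 lower among all tested genes and to 2 among the other phosphoinositide genes; the genes of those stretches were not tested there. With 1 library left out at a time, 8 to 12 members (20% to 30%) separated the groups, beside 23.2% to 30.7% of all genes tested in those fits, 13 to 30 genes were called higher and 91 to 189 lower, 2 to 5 other phosphoinositide genes were called lower, and PIP4K2B had a log2 change of -1.27 to -1.04. The log2 change of PLCB3 ran from 0.03 to 0.25 in those fits, and that of PIK3CD from -0.69 to -0.29. PLCB4 also missed the threshold with no filter (adjusted p = 0.114), no variance trend (0.0546) and without the lowered stretches (0.126).

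With the replicate number as a block, 1 of 40 members was called higher (PLCD3, adjusted p = 0.0163) and 1 lower (MTMR1, adjusted p = 0.0364). Among all 12096 genes tested in that fit, 284 were called higher and 597 lower. Of the other phosphoinositide genes, 2 were called higher. Deviations of same-numbered libraries from their group means correlated, across genes, at 0.25 for number 1, 0.27 for number 2 and -0.02 for number 3. Control 1 with α-/-;βin 2 gave -0.24 and control 2 with α-/-;βin 1 gave -0.29. Deviations from a group mean cancel within the group, so negative values between different numbers are partly built in. Libraries numbered 1 and 2 correlated best with their own number, and those numbered 3 did not. The labels do not say what a number marks, so the libraries were not treated as paired. That no member was called in the main fit depends in part on this choice.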
